A study of Mus musculus with 13 samples.

Results

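Thymocytes in S phase were examined in 8 mouse thymic lobes profiled by split-pool barcoded single-cell RNA sequencing. The cells were chosen by measured values: a cell had 500 to 25000 unique molecular identifiers (UMIs) and at most 1 UMI of Il2ra, at least 6 UMIs summed over the 8 replication genes Cdc6, Pola1, Hells, Pole, Ccne2, Dtl, Mcm10 and Lig1 (the sum S), and an S of at least 2 times the sum M over the 6 mitotic genes Aspm, Cenpf, Cenpe, Hmmr, Kif14 and Depdc1b. Of 61923 thymic cells in the tables, 56633 lay within the limits on UMIs and Il2ra, and 3962 of these met the rule. The other 52671 cells of the same lobes were the comparison. Within them, 5103 mitotic cells (M of at least 6 and at least 2 times S) and 27757 cells without a UMI of any of the 14 genes were also compared on their own. Mitotic is a short name: the genes of M mark G2 as well as mitosis, so these cells can include cells in G2. Of these mitotic cells, 40.4% held 3 or more UMIs summed over 6 of the S genes. Cells in S phase can therefore be among them too. S phase is a short name as well: cells were chosen by mRNA alone, so the members can include cells late in G1. DNA content was not measured.

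The study set split-pool barcoding beside droplet sequencing on the mouse thymus, and the droplet libraries were not analysed here. In the Parse WT experiment, 4 thymic samples, the separated lobes of 2 mice, shared a library with 16 other samples, which were used here only to check the tissue. In the Parse Mini experiment, 4 lobes came from 2 further mice. All lobes came from female C57BL/6N mice aged 2 months that received no treatment, so that no treatment is compared here. The labels do not tie the Parse WT lobes to mice, and the names 1-A to 2-B of the Parse Mini lobes are not explained there, so lobes of 1 mouse enter as separate samples and p-values over 8 lobes are smaller than those over 4 mice would be. Experiment, kit and mice cannot be told apart.

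In S phase a cell copies its genome once. The MCM helicase is loaded on replication origins in G1, E2F transcription factors then raise the genes for helicase, polymerases and nucleotides, and histones are made to package the new DNA. In the thymus, cells that have made a T cell receptor beta chain divide several times as they go from the double-negative stage (DN, without CD4 and CD8) through an immature single-positive stage to the double-positive stage (DP, with both), then stop dividing and rearrange the receptor alpha chain.

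Promoters of some of the genes that chose the cells show the best-known letters of this control. The S genes printed here are those that held a match. The 150 bases before the RefSeq start (GRCm38.p6) are printed 5′ to 3′ on the strand of the gene for 4 of the S genes, for Mcm6 and the histone gene H4c1, which the rule did not use, and for the mitotic genes Mki67 and Cdc20. Capitals mark the E2F motif TTTCCCGC or TTTGGCGC, on either strand, in the first 6 and the cell-cycle homology region motif TTTGAA, on either strand, in Mki67 and Cdc20.
Cdc6, chr11:98908001-98908150, plus strand: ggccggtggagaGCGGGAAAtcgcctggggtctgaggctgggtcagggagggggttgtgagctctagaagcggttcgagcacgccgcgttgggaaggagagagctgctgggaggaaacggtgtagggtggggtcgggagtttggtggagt
Pola1, chrX:93632156-93632305, minus strand: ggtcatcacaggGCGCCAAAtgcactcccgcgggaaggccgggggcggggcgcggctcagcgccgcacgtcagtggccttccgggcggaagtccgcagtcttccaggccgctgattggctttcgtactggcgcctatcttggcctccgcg
Hells, chr19:38930840-38930989, plus strand: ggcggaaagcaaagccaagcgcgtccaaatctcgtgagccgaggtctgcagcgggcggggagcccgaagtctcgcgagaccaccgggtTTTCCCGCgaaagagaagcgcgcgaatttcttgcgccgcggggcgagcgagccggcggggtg
Dtl, chr1:191575545-191575694, minus strand: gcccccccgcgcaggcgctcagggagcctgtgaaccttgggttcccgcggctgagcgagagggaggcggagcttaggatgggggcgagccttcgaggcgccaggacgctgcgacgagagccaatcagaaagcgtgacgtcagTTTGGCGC
Mcm6, chr1:128359706-128359855, minus strand: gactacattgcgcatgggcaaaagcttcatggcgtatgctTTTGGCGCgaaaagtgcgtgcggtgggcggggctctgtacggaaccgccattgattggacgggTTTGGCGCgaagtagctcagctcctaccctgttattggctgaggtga
H4c1, chr13:23761250-23761399, minus strand: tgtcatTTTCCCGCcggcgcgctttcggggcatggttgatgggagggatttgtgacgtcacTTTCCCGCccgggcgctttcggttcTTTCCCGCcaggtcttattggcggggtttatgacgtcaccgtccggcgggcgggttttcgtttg
Mki67, chr7:135716380-135716529, minus strand: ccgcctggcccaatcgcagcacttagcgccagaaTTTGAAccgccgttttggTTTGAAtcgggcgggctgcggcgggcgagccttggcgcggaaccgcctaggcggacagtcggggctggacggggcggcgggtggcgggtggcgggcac
Cdc20, chr4:118437344-118437493, minus strand: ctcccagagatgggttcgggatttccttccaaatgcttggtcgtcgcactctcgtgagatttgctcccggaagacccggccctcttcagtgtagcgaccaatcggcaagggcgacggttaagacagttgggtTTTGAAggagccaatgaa

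Within the whole promoter entries, which run from 250 bases before to 50 bases after the start, 4 of the 6 S genes with an entry held an E2F motif and none of the 5 M genes did. Of all 27025 genes with an entry, 486 (1.80%) held one. The share was 42.9% (9 of 21) in the list of origin licensing and helicase genes, 25.0% (6 of 24) in that of polymerases and fork proteins, 5.26% (1 of 19) in nucleotide synthesis, 40.0% (6 of 15) in cohesion and condensation, and 0 of 30 among the thymocyte stage genes. In the replication-dependent histones it was 1.75% (1 of 57), H4c1 being the one. The motif TTTGAA was found in 4 of the 5 M genes, in 22 of 32 genes (68.8%) of the list of G2 and mitosis, in 26 of 57 histone genes (45.6%) and in 5466 of all 27025 (20.2%). A match is a run of letters and not a measured binding site.

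The cells of the lobes were thymocytes by their markers. Rag1, the recombinase of receptor rearrangement, lay between 508 and 937 CPM (counts of a gene scaled to 1000000 UMIs) in the 8 lobes and between 3.47 and 21.3 CPM in the 16 other samples, and the B cell factor Ebf1 between 9.23 and 62.03 CPM against 513 to 3233 CPM. The S-phase cells of a lobe together held between 2379622 and 11258781 UMIs. Within the Parse WT table, 9020 of 29430 barcode combinations occurred in more than 1 sublibrary, each counted here as a separate cell, and no combination occurred in both experiments. No doublet caller was run here, although the study's own analysis removed doublets, so doublets may be among the cells.

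Between 230 and 1069 cells per lobe met the rule. The share of cells within the limits was lowest in Parse Mini sample 2-B at 5.22% (exact Clopper-Pearson 95% interval 4.60 to 5.91%) and highest in Parse WT sample 4 at 7.85% (7.41 to 8.32%), and the mean over lobes was 6.77% ± 0.947 (SD, n = 8). These intervals cover counting error only. Several lobes differed by more than counting error, and the range of the 4 Parse Mini lobes covered most of that of the 4 Parse WT lobes. The means were 6.99% ± 0.920 in Parse WT and 6.56% ± 1.06 in Parse Mini (two-sided exact permutation test over lobes, p = 0.629, smallest possible p = 0.0286). There were between 0.635 S-phase cells for each mitotic cell, in Parse WT sample 2, and 1.04, in Parse WT sample 1. First-round wells of 1 lobe were close in Parse WT sample 4 (7.91% and 7.70%) and less so in Parse Mini sample 2-A (7.11%, 7.00% and 5.66%).

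**Figure D1:**
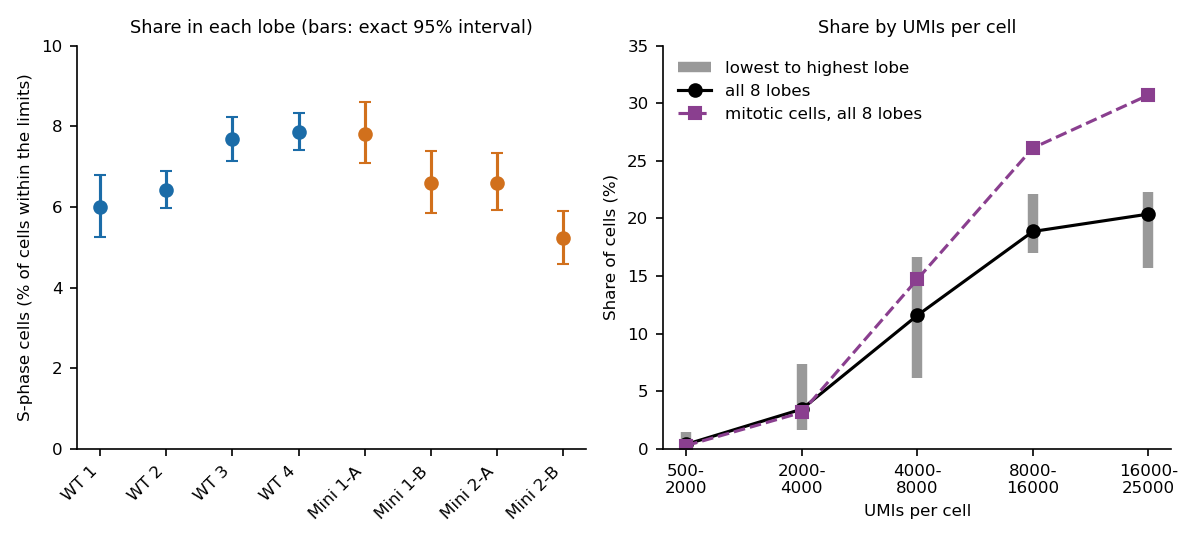
Left, S-phase cells as a percentage of the cells within the limits in each lobe (blue, Parse WT; orange, Parse Mini), with exact 95% intervals. Right, the share by UMIs per cell, with grey bars from the lowest to the highest lobe; it went from 0.409% at 500 to 2000 UMIs to 20.4% at 16000 to 25000, and that of mitotic cells, in purple, from 0.302% to 30.7%.

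The share of cells that met the rule rose with the UMIs of a cell. The median S-phase cell held 8091 UMIs, against 2721 in the other cells and 8822 in the mitotic cells, and the ratio of medians to the other cells lay between 2.72 and 3.24 in the 8 lobes. The rule asks for a fixed number of UMIs and so picks deeper cells by itself, and RNA content and capture cannot be told apart in these counts. When each cell was thinned to 4000 UMIs and shallower cells were left out, 2166 of 22108 cells met the rule, a mean share of 10.7% ± 2.28 (n = 8), and the 4 Parse Mini lobes then had the higher mean, 12.4% ± 1.94 against 9.07% ± 0.940 in Parse WT (exact permutation p = 0.0571). Without the condition on M, 8084 cells would have entered, so that 4122 cells with an S of 6 or more were left out for their mitotic UMIs.

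The 14 genes of the rule are given as a description. Pola1, the catalytic subunit of polymerase alpha, carried a median of 37.8% of the S UMIs and was seen in 94.8 to 97.5% of the S-phase cells of a lobe. Hells, a chromatin remodeller, was seen in 79.6 to 91.3%, Lig1, which seals nicks between Okazaki fragments, in 78.5 to 87.6%, and Dtl, a substrate receptor of a ubiquitin ligase, in 77.3 to 86.5%. The licensing factor Cdc6 (53.3 to 65.7%), cyclin E2 (Ccne2, 42.6 to 57.4%) and Mcm10 (39.1 to 52.6%) were seen in fewer, and Pole, the catalytic subunit of polymerase epsilon, in 59.4 to 72.2%. Of the mitotic genes, the kinetochore motor Cenpe was seen in 51.0 to 58.7% of the S-phase cells and Cenpf in 33.8 to 44.9%, while Aspm, Kif14, Depdc1b and Hmmr lay between 14.7% and 30.4%. Of the 8 genes, 5 were seen in 23.4% of the members, 6 in 23.35%, 7 in 19.3% and all in 8.46%, while 0.328% had 1 gene only. At the threshold, 296 members had an S of exactly 6 while 903 cells had an S of 5, counted before the ratio to M, and a minimum of 5 would have given 4234 members in place of 3962. The median UMIs were 7464 at an S of 6 and 7548 at an S of 5, the first including 454 cells that failed the ratio. In 45.4% of the members S was 15 or more.

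For genes outside the rule, raw counts were summed over the cells of a class in each lobe and compared with the quasi-likelihood test of edgeR, with the lobe as a block and Benjamini-Hochberg adjustment over all genes tested. Levels are CPM after TMM scaling, given as lowest, median and highest lobe. Of 13565 genes tested against the other cells, 3640 (26.8%) were higher and 3346 (24.7%) lower in S phase at an adjusted p of at most 0.05. Of 10435 tested against mitotic cells, 24.4% were higher and 26.2% lower. Of 11924 tested against cells without a UMI of the 14 genes, 33.9% were higher and 32.5% lower. Of 10071 tested against other cells drawn within lobes to match in UMIs, 2614 were higher and 2520 lower. These numbers are the background for the lists below. The median log2 difference over all genes tested was -0.01, -0.01, -0.02 and, with matched UMIs, -0.01. A gene that moves with the rule genes from cell to cell differs by the choice of cells, so the tests tell how regular a difference was over lobes. The comparison classes are mixed as well: mitotic cells and cells with an S of 6 or more gave 37.9% of the UMIs of the other cells.

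**Figure D2:**
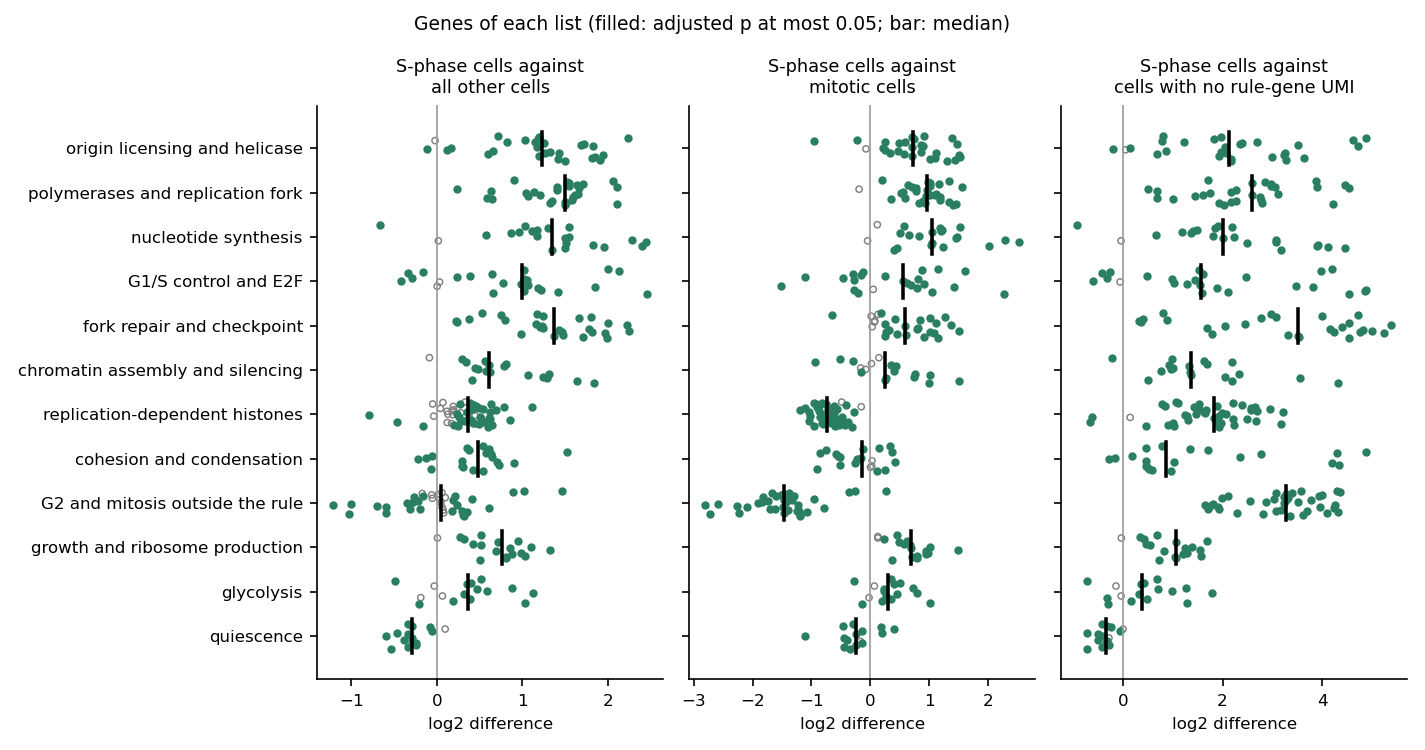
Each point is 1 gene of a list, at its log2 difference between S-phase cells and all other cells (left), mitotic cells (middle) and cells without a UMI of the rule genes (right), on axes of different range; filled points had an adjusted p of at most 0.05 and bars are medians. The medians of the lists of replication lay right of 0 in all 3, histones had medians of 0.37, -0.73 and 1.83, and G2 and mitosis genes had medians of 0.05, -1.46 and 3.28.

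E2f1, an activator of the G1/S programme that is itself an E2F target, lay at 32.5, 44.1 and 54.4 CPM in S-phase cells and at 4.74, 7.61 and 10.6 CPM in the other cells. The groups did not overlap, and the log2 difference of 2.46 ± 0.11 (SE, n = 8; adjusted p = 5.44e-14, edgeR) was the largest among genes of at least 20 CPM. Against mitotic cells it was 2.27, with no overlap either. Of the 24 genes of G1/S control and E2F, 18 rose and 4 fell (median 1.00), and of 23 tested against mitotic cells 13 were higher and 9 lower (median 0.56). Mybl2, a regulator of cell-cycle genes, lay at 61.3 CPM against 13.8 CPM in the medians (log2 2.13), cyclin E1 (Ccne1) differed by 1.85, E2f3 by 1.41 and Cdk6, a kinase of early G1, by 0.77. The 4 that fell were the thymocyte cyclin D3 (Ccnd3, -0.42), the Cdk inhibitor p27 (Cdkn1b, -0.29), the pocket protein Rbl2 (-0.33) and the transcription factor Myb (-0.16). Ccnd3 lay at 2302, 2693 and 2947 CPM in S phase against 3369, 3579 and 3830 CPM, without overlap.

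Origin licensing and helicase genes rose in 26 of 28 cases (median log2 1.23), and in the same number of cases with comparison cells of matched UMIs (median 0.96). Mcm6, a subunit of the helicase whose promoter is printed above with 2 E2F motifs, lay at 183, 198 and 237 CPM against 44.5, 56.8 and 68.3 CPM. The ranges were far apart (log2 1.84 ± 0.07). Mcm3 differed by 1.91, Cdc45, which joins the helicase when origins fire, by 1.82 and Recql4, which helps to activate it, by 2.24. Orc4, a subunit of the origin recognition complex, was the 1 gene that fell (-0.11), and it did not pass with matched UMIs (-0.07). Against mitotic cells 25 of 28 were higher, with Mcm6 at 1.52 and Mcm3 at 1.44. Dbf4, the activator of the origin-firing kinase Cdc7, was chosen after the values were seen: it was lower than in mitotic cells (-0.96) in 8 of 8 lobes.

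All 29 genes of polymerases and fork proteins outside the rule rose (median 1.5), and 28 of 29 were higher than in mitotic cells (median 0.96). The primase subunit Prim1 lay at 74.5, 95.9 and 108 CPM against 15.2, 21.6 and 26.3 CPM (log2 2.10). Dna2, a nuclease of Okazaki fragment processing, differed by 2.06, Dscc1, a part of a clamp loader, by 2.10, Prim2 by 1.32 and the clamp loader Rfc1 by 1.06. Claspin (Clspn), which carries the checkpoint signal at stalled forks, differed by 1.64 from the other cells and by 0.65 from mitotic cells.

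Genes for the supply of DNA building blocks moved with them. In nucleotide synthesis 19 of 21 genes rose (median 1.35), and the same number of 21 was higher than in mitotic cells. Thymidylate synthase (Tyms), which makes the thymidine nucleotide, lay at 87.8, 99.4 and 117 CPM against 21.3, 25.2 and 31.0 CPM. The groups did not overlap (log2 1.96 ± 0.07, adjusted p = 1.45e-14, edgeR). The serine hydroxymethyltransferase Shmt1 differed by 2.28 and the deoxycytidylate deaminase Dctd by 2.45, the latter at a low level (11.6 CPM against 2.00 CPM in the medians). The 2 subunits of ribonucleotide reductase, Rrm1 and Rrm2, differed by 1.35 and 1.5 from the other cells and by 0.41 and 0.45 from mitotic cells. Samhd1, which breaks down deoxynucleotides, was the 1 gene that fell against the other cells. It lay at 25.4, 36.2 and 47.2 CPM against 46.6, 56.2 and 77.3 CPM, narrowly overlapping (log2 -0.66). It was not particular to S phase: 0 of the 21 genes were called lower than in mitotic cells. Medians of Samhd1 were 36.6 unscaled CPM in S phase and 30.55 in mitotic cells.

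Fork repair and checkpoint genes rose in 27 of 27 cases (median 1.37), and 21 of 27 were higher than in mitotic cells. Exo1, a nuclease of mismatch repair and end resection, lay at 56.8, 60.3 and 73.5 CPM against 9.55, 13.3 and 16.4 CPM (log2 2.22). Rad54l, a motor protein of homologous recombination, differed by 2.25, Brca1, which acts in the same pathway, by 1.99 and the checkpoint kinase Chek1 by 2.00. Neil3, a glycosylase, differed by 0.75 and was the 1 gene of the list that was lower than in mitotic cells (-0.66).

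**Figure D3:**
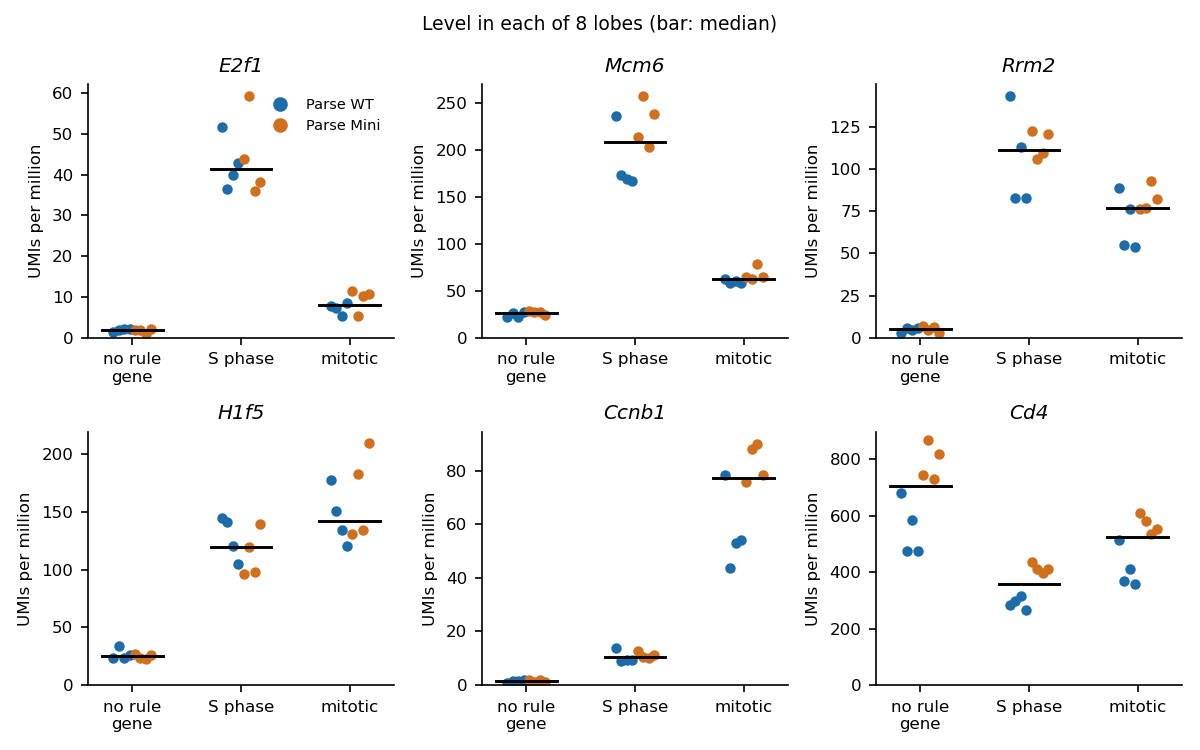
Unscaled CPM of 6 genes in cells without a UMI of the rule genes, S-phase cells and mitotic cells, 1 point per lobe (blue, Parse WT; orange, Parse Mini) and a bar at the median. E2f1 and Mcm6 were highest in S phase, with medians of 41.4 and 208, Rrm2 stayed near in mitotic cells (111 and 76.6), H1f5 and Ccnb1 were highest in mitotic cells (143 and 77.1), and Cd4 was lowest in S phase (357).

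Genes of chromatin assembly and silencing rose in 17 of 18 cases, by a smaller median of 0.61. Chaf1a, a subunit of the assembly factor that deposits histones at the fork, lay at 87.2, 106 and 131 CPM against 18.8, 28.5 and 41.0 CPM (log2 1.83). Its partner Chaf1b differed by 1.64, the histone chaperone Asf1b by 1.29, the maintenance methyltransferase Dnmt1 by 1.31 and Uhrf1, which brings Dnmt1 to new DNA, by 2.00. Against mitotic cells 10 of 18 were higher and 4 lower. The lower ones included Ezh2, the methyltransferase of Polycomb repression (-0.16), and Hmgb2, a DNA-bending protein (-0.94), while Chaf1b was higher by 1.52.

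The replication-dependent histones themselves followed the enzymes in some comparisons only. These genes lie in clusters, and their mRNAs end in a stem-loop instead of a poly(A) tail. Copies of 1 histone are nearly identical, and the sources used here do not say how reads matching several of them were counted, so single histone genes are uncertain. The 66 genes of the list took 0.0824% ± 0.0151 of the UMIs of an S-phase cell (mean over cells, then SD over 8 lobes), 0.0322% ± 0.00540 in cells without a UMI of the rule genes and 0.127% ± 0.0247 in mitotic cells. In all other cells together they took 0.0489% ± 0.00679. In every lobe the order was the same, and mitotic cells, which can include cells in G2 and S phase, were highest. Of 43 histone genes tested against mitotic cells, 41 were lower in S phase and none was higher (median -0.73). Against cells without a UMI of the rule genes 40 of 43 were higher (median 1.83). Against all other cells 29 of 52 were higher and 3 lower (median 0.37), and with comparison cells of matched UMIs 3 of 36 were higher and 3 lower (median 0.02). The summed share of UMIs was still higher than in the matched cells in 8 of 8 lobes, at 0.0824% against 0.0680% ± 0.0103.

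The linker histones had the most counts. H1f5 lay at 85.9, 125 and 166 CPM in S phase against 58.6, 75.5 and 112 CPM in the other cells, with overlap but higher in 8 of 8 lobes (log2 0.64). H1f3 differed by 0.25 and by 0.01 with matched UMIs, where it did not pass. Against mitotic cells H1f5 was at -0.42, H1f3 at -0.60 and H1f4 at -0.53. The core histone H4c1, with the printed promoter, was at 0.78 against the other cells and at -0.15 against mitotic cells, the latter not past the threshold.

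**Figure D4:**
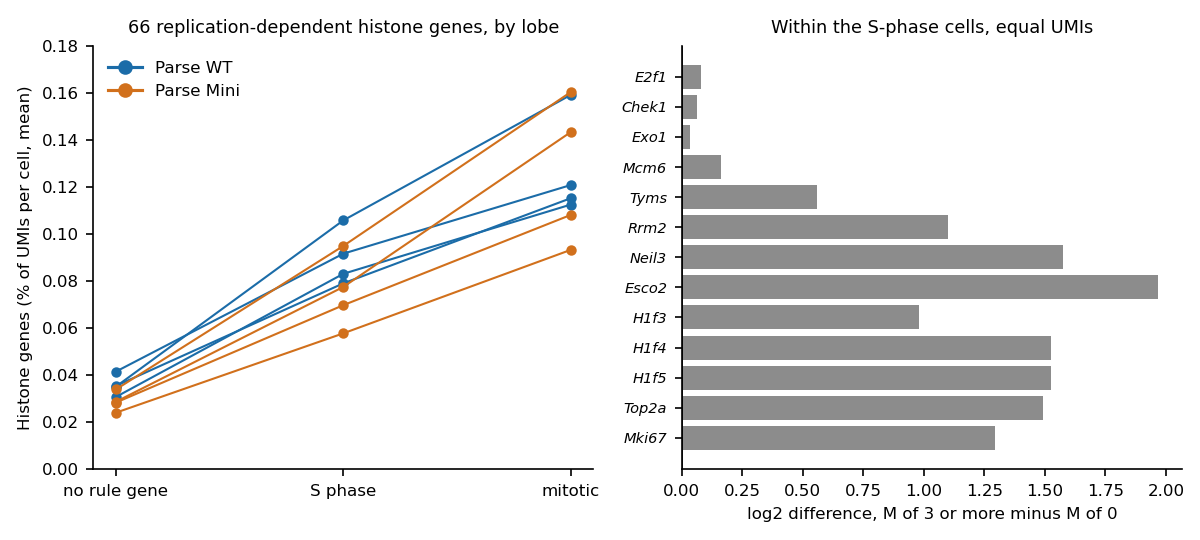
Left, the mean percentage of UMIs per cell from 66 replication-dependent histone genes, with 1 line per lobe (blue, Parse WT; orange, Parse Mini), which rose in all 8 lobes from cells without a UMI of the rule genes to S-phase and to mitotic cells. Right, the log2 difference of the mean CPM between S-phase cells with an M of 3 or more and S-phase cells with an M of 0, drawn to match in UMIs: E2f1, Chek1 and Exo1 lay under 0.1, and Rrm2, Neil3, Esco2, H1f4, H1f5, Top2a and Mki67 above 1.

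The S-phase cells also carried mRNA of later stages. Of 37 genes of G2 and mitosis outside the rule, 37 were higher than in cells without a UMI of the rule genes (median 3.28), 36 were lower than in mitotic cells (median -1.46), and 13 were higher and 13 lower than in all other cells. The cells without rule-gene UMIs were chosen to lack the mitotic genes and had a median of 1927 UMIs. Mitotic cells were chosen to hold those genes. Both differences therefore follow at least in part from the choice of cells. With comparison cells of matched UMIs, 4 were higher and 30 lower (median -0.37). The 1 that was higher than in mitotic cells was Cenpk, a kinetochore gene (0.27). Cyclin B1 (Ccnb1), which drives entry into mitosis, lay at 8.88, 10.3 and 13.9 unscaled CPM in S phase, at 43.7, 77.1 and 90.0 in mitotic cells and at 0.908, 1.47 and 2.01 in cells without the rule genes. The 3 ranges were apart, as the choice of the classes favours. Against mitotic cells Ccnb1 differed by -2.72, Cdc20, an activator of the anaphase-promoting complex, by -2.60 and its ubiquitin-conjugating partner Ube2c by -2.81, while the topoisomerase Top2a and the proliferation marker Mki67 differed by -1.19 and -1.20. Against all other cells Top2a and Mki67 were higher by 0.30 and 0.32, and lower by 0.13 and 0.11 with matched UMIs (the cause was not tested). The matched cells are deeper, and deeper cells were more often mitotic. Kif11, a spindle motor, went from 0.29 to -0.17.

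Cohesin and condensin genes divided. Of 20 genes, 16 were higher than in other cells (median 0.48), and 6 were higher and 11 lower than in mitotic cells. Ncapg2, a condensin II subunit, lay at 192, 225 and 264 CPM against 57.9, 75.3 and 95.6 CPM (log2 1.52) and was also higher than in mitotic cells (0.38). Esco2, which acetylates cohesin during replication, differed by 0.73 from other cells and by -0.51 from mitotic cells, and the condensin subunit Smc2 by 0.65 and -0.51. Pds5a, a cohesin regulator, was higher than in both (0.70 and 0.43), and the loader Nipbl was lower than in both (-0.22 each). The cohesin subunit Rad21 and cyclin A2 (Ccna2), both chosen after the values were seen, were lower than in mitotic cells by 0.91 and 1.52 on the log2 scale.

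The S-phase cells were also split by M, a sum that the rule used. Of the 3962, 22.1% had no UMI of the mitotic genes and 42.4% had 3 or more, with median UMIs of 5664 and 10390. To set cells of like depth side by side, 699 cells of each kind were drawn to match within lobes (median UMIs 6852 and 6864, median S of 14 and 12). The comparison was made after the data were seen and is a description, with no test. The split itself raises G2 and mitosis genes. Since the rule asks for an S of at least 2 times M, the split also favours genes that move with S. E2f1, Exo1, Chek1 and Prim1 differed by less than 0.1 on the log2 scale and Chaf1b by -0.13, while Ccne1 (0.75), Clspn (0.64), Brca1 (0.56) and Mybl2 (0.38) were higher in cells with mitotic UMIs in 7 or 8 lobes. Rrm2 was higher in cells with mitotic UMIs by 1.10, Tyms by 0.56, Neil3 by 1.57 and Esco2 by 1.97, each in 8 of 8 lobes. All 7 histone genes of at least 20 CPM were higher in 6 or more lobes (median 1.12), as were 1421 of all 5792 genes (median -0.00), H1f5 going from 62.6 CPM to 182 CPM. The median was 1.77 for 29 genes of G2 and mitosis, as the split favours, 0.39 for 17 of chromatin assembly, 0.34 for 25 of fork repair and 0.14 for 26 of origin licensing. Stage genes differed as well: of 33, 24 were lower in cells with mitotic UMIs in 6 or more lobes (median -0.25), against 1414 of all 5792 genes. Ccr7 differed by -1.47, Il7r by -1.08, Bach2, a quiescence gene here, by -0.92 and Bcl2 by -0.70, while Notch1 was higher by 0.35 in 8 of 8 lobes.

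Growth genes were higher. In growth and ribosome production 17 of 18 genes rose (median 0.76), and 16 of 18 were higher than in mitotic cells (median 0.69). The nucleolar protein Nop58, a core part of box C/D particles that methylate ribosomal RNA, lay at 133, 154 and 179 CPM against 55.9, 72.3 and 103 CPM (log2 1.03). Nolc1, a nucleolar chaperone, differed by 0.98, nucleophosmin (Npm1) by 0.81 and Polr1b, a subunit of RNA polymerase I, by 1.32. Cytosolic ribosomal protein genes took 0.488% ± 0.141 of the UMIs of an S-phase cell, 0.366% ± 0.122 in other cells and 0.364% ± 0.116 in mitotic cells. The spread between lobes was larger than these differences, but S-phase cells were highest in 8 of 8 lobes. The share of mitochondrial UMIs was 6.08% ± 0.671, against 5.29% ± 0.882 and 5.46% ± 0.612.

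In glycolysis 11 of 16 genes rose and 2 fell (median 0.37). Hexokinase 2 (Hk2), the inducible form, differed by 1.03, Tpi1 by 1.12, Pkm by 0.35 and the glucose carrier Slc2a3 by 0.51, while hexokinase 1 (Hk1, -0.20) and Ldhb (-0.49) fell. Of 15 genes of quiescence none rose and 14 fell (median -0.29). Btg1, an antiproliferative gene, lay at 136, 170 and 220 CPM against 210, 231 and 309 CPM (log2 -0.54), with ranges that overlapped but lower in 8 of 8 lobes. Cyclin G2 (Ccng2) differed by -0.59, but it was highest in mitotic cells (medians of 92.4 unscaled CPM there, 59.2 in cells without the rule genes and 39.3 in S phase). Klf3 differed by -0.38 from the other cells and the repressor Bach2 by -0.47. Against mitotic cells 3 of the 15 quiescence genes were higher and 11 lower (median -0.25). Medians of Bach2 were 349 unscaled CPM in S phase and 287 in mitotic cells. The S-phase cells also showed more genes. At 2000 UMIs per cell they had 1107 ± 113 genes (mean of lobe medians, SD, n = 8), against 1059 ± 89.7 in other cells (48.3 more, higher in 8 of 8 lobes, two-sided exact sign-flip permutation p = 0.00781, the smallest possible) and 1062 ± 110 in mitotic cells (45.6 more, exact p = 0.00781). For this, 80 S-phase cells and 19475 other cells with fewer UMIs were left out. The genes counted include the 14 rule genes, which were used to choose the cells. Against other cells the difference in single lobes lay between 10.0 and 76.0 genes.

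Among the thymocyte stage genes, DP genes were lower together. Of 19 genes of the immature single-positive and DP stages, 19 fell against the other cells (median -0.39), 17 were lower than in mitotic cells (median -0.35), 19 were lower than in cells without the rule genes (median -0.49), and 19 fell with matched UMIs. The falls lay between -0.70 and -0.10. The coreceptor Cd4 lay at 263, 359 and 390 CPM against 451, 568 and 672 CPM, without overlap (log2 -0.68 ± 0.05). Rag1 lay at 476, 565 and 668 CPM against 680, 891 and 954 CPM, also without overlap (log2 -0.56). The chemokine receptor Ccr9 differed by -0.70, the receptor alpha constant region Trac by -0.57, the signalling protein Themis by -0.50, Cd8b1 by -0.45, Bcl2l1, which keeps DP cells alive, by -0.45, the chromatin organiser Satb1 by -0.39 and Cd8a by -0.39. Against mitotic cells Cd4 was at -0.57, Cd8a at -0.60 and Rag1 at -0.31.

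At 2000 UMIs per cell, Cd4 was detected in 35.2 to 51.7% of S-phase cells of a lobe (median 43.0%), in 53.0 to 70.3% of other cells (median 64.8%), in a median of 58.9% of mitotic cells, and in 32.0% of 344 cells with B cell markers, thinned to the same depth. These cells are no clean background: Satb1 was detected in 82.3% and Themis in 72.7% of them, so that thymocytes or doublets may be among them. Of 42 stage genes seen in at least 1% of either class (median over lobes), 21 were detected in fewer S-phase than other cells in 8 of 8 lobes and 3 in more, while among 9638 such genes outside the rule 12.2% were detected in fewer and 19.5% in more. The 3 stage genes were Notch1, Kit and Arpp21, a DP gene that was detected in a median of 95.2% against 90.5% although its level differed by -0.15. In the cells with B cell markers Notch1 was detected in 10.8%, under the median of 25.4% in S-phase cells, and Kit in 2.33% against 2.22%. At 4000 UMIs Kit was detected in 1.21% of 249 cells with B cell markers and in a median of 4.11% of S-phase cells, higher than in other cells in 8 of 8 lobes. Hes1 was detected in 0.581% of cells with B cell markers and a median of 0.703% of S-phase cells at 2000 UMIs, and in 1.61% and 1.37% at 4000 UMIs. Its few UMIs do not tell S-phase cells and cells with B cell markers apart.

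Genes of the DN stage and of beta selection went the other way or did not move as a group. Of 8, 4 rose, 2 fell and 2 did not pass (median 0.46). With matched UMIs, 3 of 7 were higher and 2 lower (median 0.27). Notch1, the receptor that commits cells to the T lineage, lay at 115, 172 and 241 CPM against 79.6, 101 and 108 CPM, without overlap (log2 0.78). Its target Hes1 lay at 2.24, 5.34 and 7.64 CPM against 0.552, 1.45 and 2.34 CPM (log2 1.68), Kit at 9.32, 13.9 and 16.3 CPM against 5.46, 7.08 and 9.53 CPM (log2 0.92), and Ptcra, the pre-receptor alpha chain, at 4.09, 5.85 and 9.71 CPM against 3.03, 3.55 and 4.62 CPM (log2 0.76). These 3 overlapped slightly, were higher in 8 of 8 lobes and rest on few counts, and Ptcra did not pass in the Parse Mini lobes alone. Notch3 (0.10) and Dtx1 (0.15), also of the Notch pathway, did not pass. Notch3 was below 0 with matched UMIs (-0.0877). It passed with an upper limit of 12000 UMIs (0.147) and against cells without a UMI of the rule genes (0.463). Dtx1 was below 0 in the Parse WT lobes alone (-0.0215) and with the limit of 12000 UMIs (-0.00724). Il7r (-0.26) and Cd44 (-0.24) fell. In the Parse WT lobes alone Cd44 did not pass (-0.215). Il2ra, a marker of the middle DN stages, was limited by the rule in both classes, so that cells with more of its UMIs are missing from both.

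Of the 8 genes of selection, 7 fell against the other cells (median -0.43), and of the 8 genes of mature cells, 7 fell (median -0.31). The selection gene that rose was Nr4a1, an early response gene of receptor signals, at 116, 152 and 254 CPM against 91.7, 130 and 210 CPM (log2 0.22), overlapping but higher in 8 of 8 lobes. The mature gene that rose was Runx3, a factor of CD8 cells (log2 0.17, higher in 6 of 8 lobes), and it did not pass without Parse WT sample 1 (0.114), Parse WT sample 4 (0.165), Parse Mini sample 2-A (0.142) or Parse Mini sample 2-B (0.125). Within the S-phase cells Runx3 was lower in those with an M of 3 or more, as given above. Tox, a factor of positive selection, lay at 1022, 1134 and 1347 CPM against 1363, 1562 and 1718 CPM, just apart (log2 -0.43), and Cd5, a brake on receptor signals, differed by -0.47. Ccr7, which guides cells to the medulla, differed by -0.38 and Foxp1 by -0.30. Against mitotic cells the same lists did not share a direction: 2 of 7 tested selection genes were higher and 1 lower, and 3 of 8 mature genes were higher and 2 lower. Ccr7 was there at 0.26 and Bcl2 at 0.25, both higher, but Ccr7 did not pass in the Parse Mini lobes alone (0.19, adjusted p = 0.175, edgeR).

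**Figure D5:**
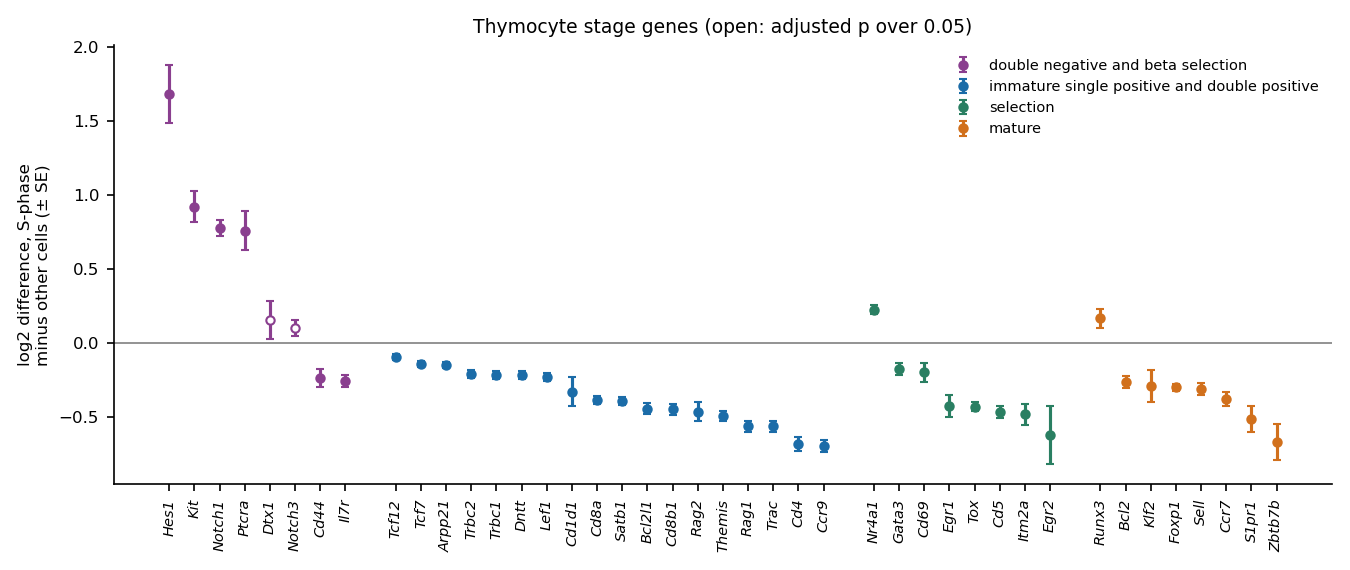
Log2 difference between S-phase and other cells of thymocyte stage genes, with SE, in 4 groups; open symbols had an adjusted p over 0.05. The genes drawn for the immature single-positive and DP stages lay between -0.70 and -0.10, while Hes1, Kit, Notch1 and Ptcra lay between 0.76 and 1.68.

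Markers of most other cell types were low. B cell markers summed to 15.8 to 81.6 CPM in the S-phase cells of a lobe and 25.6 to 169 CPM in the other cells, and 1.79% of S-phase cells had 3 or more of their UMIs, against 1.69%. Of the 6 B cell markers 4 fell and none rose. Markers of antigen-presenting cells summed to 33.2 to 120 CPM against 61.5 to 113 CPM, those of macrophages to 1.26 to 10.5 against 8.46 to 17.2 CPM, neutrophils to at most 6.77 CPM, erythroid cells to at most 6.07 CPM, epithelial cells to at most 4.29 CPM with 2 of 5 markers at 0, and fibroblasts to at most 4.18 CPM. The endothelial list reached 245 to 317 CPM in the S-phase cells and 302 to 411 CPM in the other cells, and its marker Pecam1 is expressed by thymocytes too. Shares of cells with 3 or more marker UMIs, which were not matched for depth, were highest for this list (39.1% against 21.5%). The gamma-delta and innate-like list followed (8.51% against 2.89%). In mitotic cells, which are closer in UMIs, both shares were higher than in S phase, at 52.7% and 10.2%. Of 5 genes of gamma-delta and innate-like cells, 2 rose, 1 fell and 2 did not pass (median 0.11). Trdc, the delta constant region, rose without overlap (52.9, 69.8 and 85.0 CPM against 32.0, 41.7 and 44.7 CPM, log2 0.75), but was at -0.31 against mitotic cells, and Sox13, a factor of gamma-delta cells, was higher by 0.48 in the fit but in 5 of 8 lobes only, did not pass without Parse Mini sample 2-B (0.38), and was at -0.05 with the upper limit lowered to 12000 UMIs. The natural killer receptor gene Klrb1c fell (-1.11), at medians of 0.375 CPM against 0.944 CPM, and did not pass without Parse WT sample 3 (-0.99). Zbtb16 (0.11), a factor of innate-like T cells, did not pass and was below 0 without Parse WT sample 1 (-0.0809) or Parse WT sample 2 (-0.0551). Il2rb (-0.25) did not pass either, but did without Parse WT sample 1 (-0.354). The part of such cells in the results was not tested.

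Over all genes of at least 20 CPM, the largest rises included E2f1, Pask, Rad54l, Recql4, Exo1, Mybl2, Prim1, Dscc1, Dna2, Chek1 and Uhrf1, and all of these but Pask, a metabolic kinase (log2 2.30), belong to the lists above. The largest falls were led by Sdk1, a cell adhesion gene (-1.38), and Cep89, a centriole gene (-1.34). Both were highest in mitotic cells and higher in S phase than in cells without the rule genes (0.91 and 0.50). Sdk1 lay at 78.5, 95.8 and 123 CPM in mitotic and 7.73, 10.5 and 15.0 CPM in S-phase cells (log2 -3.08), and Cep89 differed by -2.89. Among the falls of these genes against mitotic cells only that of the helicase Pif1 was larger (-4.03), followed after Sdk1 by Gas2l3, which binds microtubules (-3.00). Higher than in mitotic cells, beside E2f1, were the methyltransferase Smyd2 (1.75) and Rapgef5 (1.74).

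The S-phase contrast with the other cells was also compared between the experiments. Of 14579 genes tested for a class by experiment interaction in edgeR, none passed at an adjusted p of 0.05, 643 had an unadjusted p under 0.05, and DESeq2 called 1. Without Parse WT sample 1, 15 passed, as did 15 without the filter on low counts. In Parse WT alone 5649 genes differed from the other cells and in Parse Mini alone 4939. A difference in the contrast between experiments that is smaller than the spread over 4 lobes each would not have been detectable.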

How the data were processed

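Cells of 8 thymic lobes (4 in Parse WT, 9 sublibraries; 4 in Parse Mini, 2 sublibraries) were analysed from the UMI counts deposited by the authors. To make them, the authors processed every sublibrary with split-pipe against the mm10 genome from Ensembl and joined the outputs into 1 raw count matrix per experiment. Not given in the sources used here were the versions of split-pipe and Ensembl and the treatment of strand and of reads matching several genes. The 10x libraries were not analysed here, nor were 8 other columns of the cell tables.

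Lobes were taken from the sample names in the cell tables. Cells with 500 to 25000 UMIs and at most 1 Il2ra UMI were kept, with no limit on mitochondrial UMIs and no doublet calls. Counts were summed per class and lobe (S-phase cells, 2379622 to 11258781 UMIs; other cells, 16373270 to 66655530 UMIs) and tested with edgeR 4.0.16 (TMM, filterByExpr, quasi-likelihood test, lobe as block, Benjamini-Hochberg, threshold 0.05) in R 4.3.3 with limma 3.58.1. Classes were paired because both came from the same lobe. Shares were compared by exact permutation over lobes. For detection, cells were thinned to 2000 UMIs. Matched comparison cells were drawn within lobes. Scripts were tested on simulated data. Alternatives were DESeq2 1.42.0, no filter, no block, leaving out lobes, each experiment alone, matched cells, an upper limit of 12000 UMIs, other cut-offs and no ribosomal RNA.

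The members and the gene lists were chosen with earlier results of these data known. Genes were named by a rule: the 14 rule genes; in each list up to 5 genes per direction with the largest passing differences of 1 sign in 8 lobes and the 4 with the highest CPM; all stage genes; and over all genes of at least 20 CPM the 12 largest differences per direction (8 against mitotic cells). Dbf4, Rad21 and Ccna2 were named after their values were seen. Promoters are from RefSeq (GRCm38.p6), matched by symbol. Some genes are counted in their lists but not reported here by name.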

Additional observations from a re-analysis of the deposited data

Results flagged for a closer look

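In S-phase cells, 9 of 126 measures had 1 lobe far from the other 7 by Dixon's criterion, which flags about 1 in 20 groups by chance. Parse WT sample 1, with 230 S-phase cells, held 4 of them. There Ccnd3 lay at 2302 CPM (others 2646 to 2947), Rrm1 at 180 CPM (127 to 143) Uhrf1 at 312 CPM (192 to 242) and Runx3 at 73.3 CPM (38.7 to 53.5). In Parse WT sample 2, Hk1 lay at 60.6 CPM (69.3 to 75.5), Ldhb at 53.1 CPM (34.0 to 42.4) and Btg1 at 220.0 CPM (136 to 175). In Parse Mini sample 2-B, Rapgef5 lay at 57.0 CPM (37.8 to 45.9). In Parse WT sample 4, Notch3 lay at 64.0 CPM (39.5 to 48.3). Leaving out the lobe in question changed neither the direction nor the call of the difference for these genes, except that Runx3 no longer passed.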

How the results depend on the processing

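The number of S-phase cells was 8084 without the condition on M (share 13.7%) and 2166 with each cell thinned to 4000 UMIs (share 10.7%); without single lobes the mean share lay between 6.62% and 6.99%. The Parse WT minus Parse Mini difference in the share, 0.43 percentage points, was -3.34 in thinned cells and lay between -0.0142 (without Parse Mini sample 2-B) and 0.85 (without Parse Mini sample 1-A) when single lobes were left out. Of genes that differed from other cells, 6986 in all, the alternatives gave 4939 to 7919 and leaving out lobes 6496 to 6761; without the filter on low counts 36.5% of 7352 calls were higher, against 52.1%. Against mitotic cells (5288), leaving out lobes gave 4826 to 5187 and the Parse Mini lobes alone 3488. Without the pairing of classes by lobe (no replicate block), 3426 genes differed from mitotic cells and 5091 from other cells, and Ccr7 (in both comparisons), H1f3, H1f4, Hmgb2, Ezh2, Sox13, Cd44, Nr4a1, Orc4, Arpp21 and Runx3 each lost a call. The interaction, 0 genes, gave 1 with DESeq2, 15 without the filter and 0 to 15 without single lobes, the 15 being without Parse WT sample 1. With matched UMIs, Kif11 (-0.17), Top2a (-0.13) and Mki67 (-0.11) reversed against other cells. Against cells without a UMI of the 14 genes, Cep89 (0.50) and Sdk1 (0.91) reversed, as did Sox13 (-0.0462) with the limit of 12000 UMIs. Among genes that did not pass, Notch3 was at -0.0877 with matched UMIs, and Dtx1 at -0.0215 in the Parse WT lobes alone and at -0.00724 with the limit of 12000 UMIs. Zbtb16 (0.11) was at -0.0349 with DESeq2, -0.24 in the Parse Mini lobes alone, -0.177 with matched UMIs, -0.17 with the limit of 12000 UMIs, and between -0.0809 and 0.217 without single lobes (-0.0551 without Parse WT sample 2). Runx3 lost its call in 12 alternatives, and Klrb1c with DESeq2 (-1.08). For named genes, 2312 of 2376 values under alternatives kept direction and call, 40 lost the call, 9 gained it (Notch3 and Il2rb) and 15 reversed; the cause was not tested. Sums over few cells limit genes of a few CPM, and 4 mice limit statements beyond these lobes.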
